A study of Homo sapiens with 4 samples.

Results

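The replication-dependent histone genes encode the core and linker histones that are made in bulk when DNA is copied. They were taken as the protein-coding genes of chromosomes 1 and 6 in the GENCODE version 44 annotation whose names begin with H1-, H2AC, H2BC, H3C or H4C. This gave 68 genes among the 20033 protein-coding genes of chromosomes 1 to 22, X and Y, with 13 on chromosome 1 and 55 on chromosome 6. They comprised 6 genes of the linker histone H1, 17 of H2A, 18 of H2B, 13 of H3 and 14 of H4. RAD21 binding at these genes was read from the peak list of wild-type HCT116 cells, a human colon carcinoma line, and a peak was assigned to a gene when its summit lay in the gene or within 5 kb of it.

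Replication-dependent histone genes are short, carry no introns in their usual transcripts and lie in clusters, where many H2A and H2B genes stand head to head and share the promoter between them. Their mRNAs end in a stem-loop instead of a poly(A) tail, and the clusters gather with the coactivator NPAT in a nuclear structure called the histone locus body. RAD21 is the subunit that closes the cohesin ring. Cohesin extrudes chromatin loops and is held up at sites bound by CTCF, above all at pairs of sites whose motifs face each other.

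RAD21 ChIP-Seq was performed in the study with 1 library for each condition. The libraries were wild-type HCT116 cells without treatment, HCT116_RAD21_AID cells without treatment, HCT116_RAD21_AID cells kept for 6 h with 2 auxins, IAA (indole-3-acetic acid) and alpha-NAA (alpha-naphthaleneacetic acid), each at 500 uM, and Input chromatin of the latter. HCT116_RAD21_AID is a single clone that carries the mAID degron on RAD21 and expresses the OsTIR1 ubiquitin ligase. Only the wild-type peak list was analysed here, so there was no replicate error to judge a difference by, and no test between conditions was made. The list held 56853 peaks called against Input at a q-value of 0.05. Fold enrichment is the number of ChIP fragments over the summit divided by the local Input background, with 1 added to each, and both numbers could be recovered from the list (whole fragment numbers for 56839 peaks). The lowest background was 5.90 fragments. Intervals given below are 95% intervals for counting error only, exact Poisson for fragments and Wilson for shares. The intervals for shares of genes treat genes as independent. Neighbouring histone genes often share a summit, so these intervals are too narrow.

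Of the 68 histone genes, 38 (55.9%, interval 44.1 to 67.1%) had a RAD21 summit in the gene or within 5 kb. Over all protein-coding genes the share was 75.3%, and over those of chromosomes 1 and 6 it was 74.8%. A long gene offers more room for a summit, and histone genes are short. Among the 475 protein-coding genes of at most 1 kb, which include histone genes, the share was 25.5%, and without the histone genes it was 23.1% of 424 genes. The histone genes of at most 1 kb reached 45.1% (23 of 51 genes, interval 32.3 to 58.6%). The remaining histone genes, except H2BC21 with its canonical transcript of 2224 bp, are extended by annotated alternative transcripts, and 12 of them exceed 5 kb, whereas the canonical transcript had a median length of 488 bp. By histone class, summits were found at 1 of 6 H1 genes, 12 of 17 H2A genes, 11 of 18 H2B genes, 7 of 13 H3 genes and 7 of 14 H4 genes.

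All 13 histone genes of chromosome 1 had a summit within 5 kb, against 25 of the 55 on chromosome 6. The 30 genes without a summit all lay on chromosome 6. They were the linker histone genes H1-1, H1-2, H1-3, H1-5 and H1-6, the H2A genes H2AC8, H2AC11, H2AC12, H2AC14 and H2AC16, the H2B genes H2BC1, H2BC3, H2BC8, H2BC9, H2BC10, H2BC12 and H2BC14, the H3 genes H3C1, H3C3, H3C6, H3C7, H3C8 and H3C11, and the H4 genes H4C3, H4C6, H4C7, H4C8, H4C9, H4C12 and H4C13. For these genes the nearest summit was between 5550 bp (H3C1) and 50850 bp (H3C8) away, with a median of 12091 bp. On the inner side of the 5 kb limit, the farthest summits were those 4458 bp from H4C1 and 2800 bp from H2AC1.

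The 38 genes shared 32 peaks, of which 25 lay within 5 kb of at least 2 histone genes and some of 3. These peaks were weak compared with the rest of the list. Their fold enrichment ran from 2.03 to 25.5 with a median of 3.20, against a median of 5.58 over all peaks, and they held a median of 30 ChIP fragments against 48. A fold of 10 or more was reached by 3 of the 32 peaks, against 27.2% of all peaks. A q-value of at most 1e-05 was reached by 17 of the 32 (53.1%), against 81.0% of all peaks. The local background had a median of 7.89 fragments, against 6.73 over all peaks, and it exceeded 2 times the lowest background at 2 of the 32, against 8.37% of all peaks.

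The peaks fell into 2 kinds by position. At 19 of them the summit lay inside a canonical histone transcript, so that 19 of the 68 genes (27.9%, interval 18.7 to 39.6%) carried a summit within the short transcribed unit itself. Among canonical transcripts of at most 1 kb, 18 of 67 histone transcripts (26.9%) held a summit, against 8.25% of all 521 such transcripts and 5.51% of the 454 that are not of histone genes. On chromosome 1 this was so for 8 of 13 histone genes, and on chromosome 6 for 11 of 55. The classes contributed 1 H1, 6 H2A, 3 H2B, 5 H3 and 4 H4 transcripts. The summit lay in the coding sequence in 16 cases, which is 50% of the 32 peaks against 3.92% of the peaks on chromosomes 1 to 22, X and Y. In the other 3, H4C14, H2BC21 and H2BC4, it lay past the last codon in the untranslated part of the exon. The 32 peaks were chosen for lying in or within 5 kb of coding genes that are mostly short. Some excess in coding sequence over the share of all peaks is therefore built in.

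The 19 peaks inside histone transcripts were mostly low. Their fold enrichment ran from 2.03 to 5.66 with a median of 3.01, on 20 to 63 fragments with a median of 27. The median over all 2212 peaks with summits in coding exons was 3.87. None of the 19 reached a fold of 10 and none held a CTCF core motif, with an upper limit of the interval of 16.8% for either share. A q-value of at most 1e-05 was reached by 9 of them. The peak at H2AC25, an H2A gene in the small cluster of chromosome 1, was the highest, with 63 fragments (48.4 to 80.6) over a background of 10.3. H4C14, an H4 gene, followed with 31 fragments over 6.63, a fold enrichment of 4.19, and H2AC6, an H2A gene, with 30 fragments over 7.26, a fold enrichment of 3.75. At the low end stood H4C11, with 26 fragments over 12.3. The fragment intervals of most of these peaks overlapped, so their order within the group is not resolved at this depth.

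**Figure D1:**
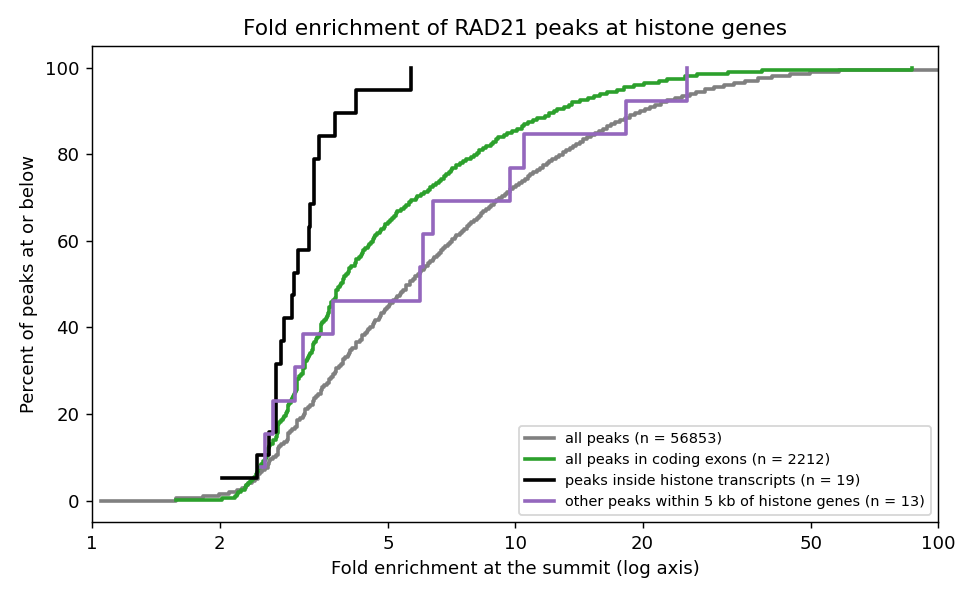
Cumulative distribution of fold enrichment (log axis) for all peaks, all peaks with summits in coding exons, the 19 peaks inside histone transcripts and the 13 other peaks within 5 kb of histone genes. The black line of peaks inside histone transcripts ends at 5.66, whereas the purple line of the other 13 peaks runs from 2.51 to 25.5.

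Inside the transcripts, summits lay 69 to 512 bp downstream of the start, with a median of 239 bp. The peaks covered between 20.7% (H2BC21) and 100% (H4C14 and H4C11) of the canonical transcript, with a median of 59.6%. Counted from the initiator methionine as codon 1, the summits of H2AC13, H2AC25 and H2AC19 fell at codons 60, 62 and 64, those of H3C2 and H3C12 at codons 36 and 37, those of H3C15 and H3C14 at codons 90 and 96, and those of H4C5 and H4C11 at codons 38 and 43. Other members of the same classes had their summits elsewhere, at codon 3 in H2AC6, 42 in H2AC21, 85 in H2AC17, 66 in H3C13 and 22 in H4C4. The H2B gene H2BC15 had its summit at codon 52 and the linker histone gene H1-4 at codon 116. Summit positions are thus close for some paralogs and not for the classes as a whole. The close groups were picked after the codons were seen. The summit 100-mers of H2AC13, H2AC19, H3C14, H3C15 and H4C11 are not unique in the assembly.

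The coding sequence around a few of these summits is shown to give the reader the bases where summits of paralogs lay close, though not at the same base. Each run is 61 bases of GRCh38 on the strand of the gene, with the summit base in capitals.
H2AC19, chr1:149851274-149851334, plus strand: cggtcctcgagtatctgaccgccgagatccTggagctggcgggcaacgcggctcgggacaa
H2AC25, chr1:228457604-228457664, minus strand: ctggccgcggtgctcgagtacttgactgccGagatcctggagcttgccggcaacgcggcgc
H2AC13, chr6:27808359-27808419, plus strand: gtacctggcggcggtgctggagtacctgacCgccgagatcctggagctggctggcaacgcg
H3C2, chr6:26031925-26031985, minus strand: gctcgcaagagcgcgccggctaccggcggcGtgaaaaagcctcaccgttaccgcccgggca
H3C12, chr6:27890654-27890714, minus strand: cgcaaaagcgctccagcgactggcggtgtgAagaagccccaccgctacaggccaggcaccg
The 3 H2A runs show the same part of the coding sequence, with differing bases on either side, although H2AC25 and H2AC13 lie on different chromosomes. The GC content of 201 bp at the 19 summits had a median of 63.2%, beside 65.2% for all summits in coding exons and 53.2% for all peaks. The transcripts with a summit inside had a median GC content of 59.2% (47.9 to 65.3%), and the 49 histone transcripts without one a median of 57.2% (47.5 to 63.4%), so the ranges overlapped almost wholly.

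Near-identical copies limit what can be assigned to a gene. Most of the sequence of 10 histone transcripts recurs elsewhere in the assembly as exact 100-mers, and 6 of these transcripts are repeated throughout, namely H4C14 and H4C15, H3C14 and H3C15, and H2AC18 and H2AC19, all in the large cluster of chromosome 1. A summit inside the transcript was found for 6 of the 10 repeated transcripts and for 13 of the other 58. At 10 of the 32 peaks the 100-mer at the summit occurs more than once, against 6.97% of all peaks. Reads from such copies cannot be told apart, so the peaks at H4C14, H3C14, H3C15, H2AC19, H2AC13 and H4C11 may hold fragments of a paralog. Restricted to peaks whose summit 100-mer is unique, 41.2% of histone genes had a summit within 5 kb, against 73.7% of all protein-coding genes and 20% of those of at most 1 kb, and 50% of the peaks still lay in coding sequence.

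**Figure D2:**
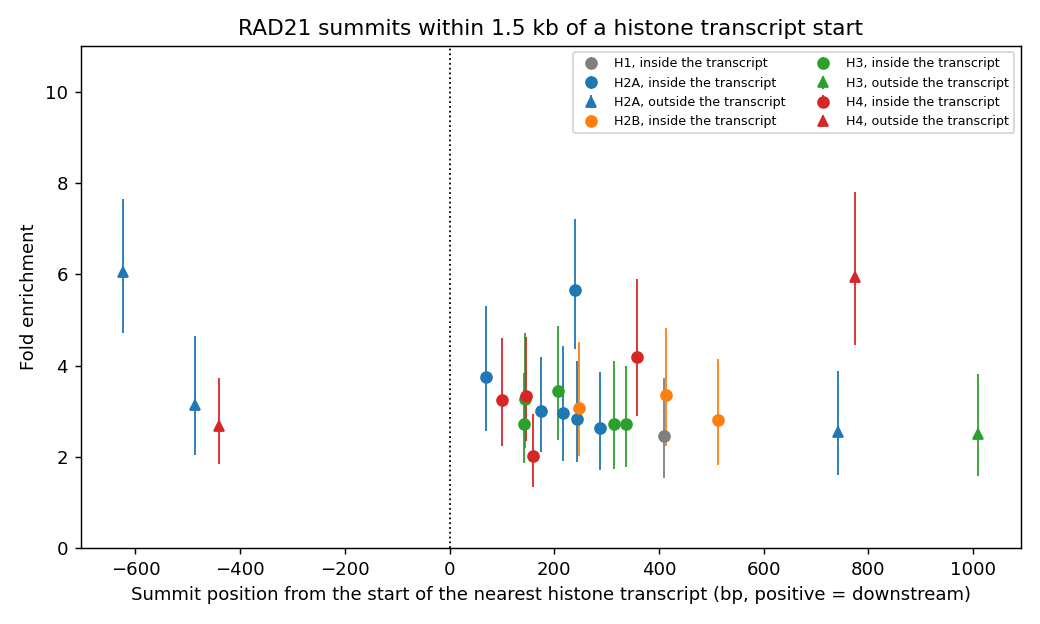
Fold enrichment against the position of the summit relative to the start of the nearest histone transcript, for the 25 peaks within 1.5 kb of a start. Circles are the 19 summits inside transcripts, triangles the 6 outside, colours are histone classes and bars are exact Poisson intervals for the fragments at a fixed background. The circles all stand between 69 and 512 bp downstream of the start, below a fold enrichment of 6.

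The other 13 peaks had a median fold enrichment of 5.95. Some of them, at 2.51 to 3.71, were as low as the peaks inside transcripts, whereas others held the strongest signals near histone genes. The highest lay at chr1:149792373-149793457 within the extended annotation of H2BC18, an H2B gene, 19775 bp downstream of the start of its canonical transcript. It had 223 fragments (195 to 254) over a background of 7.79, a fold enrichment of 25.5, and its summit 100-mer occurs at 2 places in the assembly. The next, at chr6:27126889-27127505, lay 5530 bp downstream of the canonical start of H2BC11 with 145 fragments (122 to 171) over 6.99, a fold enrichment of 18.3. It was counted through the extended annotation of H2BC11 and stood 5.05 kb from the closest canonical histone transcript. The third, at chr6:27895340-27895942, lay 2232 bp downstream of the start of H2BC17 and beyond the end of that gene, with 99 fragments (80.5 to 121) over 8.52, a fold enrichment of 10.5. A peak at chr6:26097268-26097682 had 101 fragments (fold enrichment 9.74) and was counted because it lies in the extended annotation of H2BC4. Its summit also lies in an untranslated exon of HFE, which is not a histone gene. It stood 6492 bp from the transcript of H4C3, the closest canonical histone transcript. Below these came a peak 8.14 kb upstream of the canonical start of H2BC6 (fold enrichment 6.39). Another was 623 bp upstream of H2AC21 (6.04), and its summit lies in the annotated extent of BOLA1, which is not a histone gene. A further peak was 775 bp downstream of the start of H4C2 (5.95), past the end of that gene.

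The CTCF core motif, CCANNAGNNGGC on either strand within 50 bp of the summit, was present at 3 of the 32 peaks (9.38%, interval 3.24 to 24.2%). It was present at 18.4% of all peaks and in 0.379% of control windows 5 kb to either side of them. The control windows of the 32 peaks held it in 2 of 64 cases. All 3 peaks with the motif lay outside histone transcripts, and they were those at H2BC11, H2BC17 and H2AC21. They are shown as the sites near histone genes with the letters of CTCF, with the motif in capitals and 20 bases on each side, on the strand that carries it.
H2BC11, chr6:27127212-27127263, plus strand: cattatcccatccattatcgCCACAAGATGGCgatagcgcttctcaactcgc
H2BC17, chr6:27895661-27895712, minus strand: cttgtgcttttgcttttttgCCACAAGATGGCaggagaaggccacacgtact
H2AC21, chr1:149888574-149888625, plus strand: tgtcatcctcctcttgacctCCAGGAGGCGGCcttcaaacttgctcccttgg
The sites at H2BC11 and H2BC17 carry the same 12 bases. These bases also hold AAGATGGC, the core of the sequence recognised by the factor YY1, which overlaps the CTCF letters here. AAGATGGC was found within 50 bp of 2 of the 32 summits and of 1.23% of all summits. With a stricter CTCF consensus, 0 of the 32 peaks matched, against 11.4% of all peaks.

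A summit lay within 1 kb of the canonical start at 29 of 68 histone genes (42.6%, interval 31.6 to 54.5%), against 34.1% of all protein-coding genes, a share inside that interval. At 19 of these 29 genes a summit was inside the transcript, as described above.

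Shared promoters were defined as the interval between the starts of 2 histone genes that point away from each other at a distance of at most 1 kb. There were 13 such pairs with 26 genes. In 12 of them an H2A gene faced an H2B gene, and in the remaining pair H3C7 faced H2BC9 at the greatest distance of 978 bp. The shortest interval was 169 bp, between H2AC15 and H2BC15, and the median was 235 bp. With summits counted between the starts or within 500 bp of either, 5 of 13 pairs (38.5%, interval 17.7 to 64.5%) had a summit, against 37.5% of the 824 divergent protein-coding pairs, so the share did not stand out from the background. These pairs were H2AC25/H2BC26, H2BC4/H2AC6, H2BC13/H2AC13, H2AC15/H2BC15 and H2AC17/H2BC17. No summit lay strictly between the starts of any of the 13 pairs, against 3.88% of all divergent pairs, and 13 pairs are too few to tell these shares apart. At H2BC21/H2AC20 a summit 512 bp into H2BC21 fell just past the limit of 500 bp. In each of the 5 pairs the signal was centred on a transcript of the pair. With no summit between the starts, that limit largely fixed this position in advance. At H2BC4/H2AC6 there were 2 summits, 414 bp into H2BC4 and 69 bp into H2AC6, with 27 fragments (17.8 to 39.3) and 30 fragments (20.2 to 42.8). At the other pairs the summit lay on the side of H2AC25, H2AC13, H2BC15 and H2AC17, with 63, 22, 24 and 24 fragments. A summit within 1 kb of the start was found at 14 of the 26 genes in pairs and at 15 of the other 42. Because the starts of a pair lie so close, 1 summit can count for both genes. The 2 counts are therefore not a like comparison.

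The sequences between the starts are shown for a pair with summits in both genes (H2BC4/H2AC6), for the shortest pair (H2AC15/H2BC15) and for a pair without a summit within 10 kb (H2BC8/H2AC8). They are GRCh38 bases on the plus strand. Capitals mark, on either strand, the letters of the CCAAT box, of the TATA box (searched as TATAA) and of the octamer that the factor POU2F1 binds (searched as ATTTGCAT).
H2BC4/H2AC6, chr6:26123927-26124144: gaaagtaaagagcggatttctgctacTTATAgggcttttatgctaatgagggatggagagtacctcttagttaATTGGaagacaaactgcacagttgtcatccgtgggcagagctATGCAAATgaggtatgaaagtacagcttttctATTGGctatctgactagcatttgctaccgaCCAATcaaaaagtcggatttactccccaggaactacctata
H2AC15/H2BC15, chr6:27838376-27838544: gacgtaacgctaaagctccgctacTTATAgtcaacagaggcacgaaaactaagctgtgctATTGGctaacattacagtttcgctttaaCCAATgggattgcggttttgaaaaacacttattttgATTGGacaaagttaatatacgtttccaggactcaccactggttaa
H2BC8/H2AC8, chr6:26216689-26216920: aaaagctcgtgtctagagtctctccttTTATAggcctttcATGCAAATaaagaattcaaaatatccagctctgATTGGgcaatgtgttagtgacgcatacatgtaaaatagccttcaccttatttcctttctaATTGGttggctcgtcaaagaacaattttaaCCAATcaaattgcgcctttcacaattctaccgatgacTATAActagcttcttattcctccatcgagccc
CCAAT was found in all 13 intervals, TATAA in 12 and ATTTGCAT in 10. Of the 5 pairs with a summit, all held CCAAT, 4 held TATAA and 2 held ATTTGCAT. In the promoter windows of RefSeq (250 bases before to 50 after the start, GRCh38.p14), 63 of the 68 genes had an entry. CCAAT was present in 85.7% of these against 35.7% of all 27305 windows, TATAA in 92.1% against 21.1% and ATTTGCAT in 41.3% against 1.80%. Among the 18 matched genes with a summit inside the transcript, 14 held CCAAT, 16 TATAA and 5 ATTTGCAT, and among the 45 without, 40, 42 and 21. Letters on both strands were counted, TATAA can overlap itself in TTATAA, and the paired genes share their interval, so these counts are not independent.

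The 68 genes formed 5 clusters when neighbours up to 500 kb apart were joined, 3 on chromosome 6 and 2 on chromosome 1. Together the clusters spanned 803926 bp and held 37 summits, or 46.0 per Mb, against 17.2 per Mb on chromosome 6 and 23.6 per Mb on chromosome 1. Of the 37, 19 lay inside histone transcripts with a median fold enrichment of 3.01. The 18 elsewhere had a median of 6.45, with 6 at or above 10. With peaks at a q-value of at most 1e-05 the density fell to 27.4 per Mb, and the chromosome densities are not given at that q-value.

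The largest cluster, chr6:25723397-26285638, ran over 562 kb from H2AC1 to H4C8 with 34 genes, of which 15 had a summit within 5 kb. It held 19 summits, or 33.8 per Mb, against 18 per Mb in the 500 kb on either side. Within it, 4 peaks reached a fold enrichment of 10, and these stood away from the genes. Of these, 3 lay in the stretch without histone genes between H2BC1 and H1-1, at distances of 61.4, 126 and 74.3 kb from the nearest histone transcript, with fold enrichments of 10.9, 16.2 and 13.9. The fourth, with 14.1, lay 9.62 kb from H1-2. In the middle of the cluster, the 6 summits inside histone transcripts were those of H3C2, H2BC4, H2AC6, H1-4, H4C4 and H4C5, with fold enrichments of 2.45 to 3.75. The end of the cluster was empty. From the summit in H4C5 to the next, 118 kb further, no summit was listed, and this stretch held 11 histone genes of all 5 classes, H2BC8, H2AC8, H3C6, H1-3, H4C6, H4C7, H3C7, H2BC9, H3C8, H2BC10 and H4C8. The median distance between neighbouring summits over chromosomes 1 to 22, X and Y was 24.4 kb. The share of distances as long as 118 kb is not given here, and the stretch was picked after it was seen. Elsewhere in the same cluster, 93.6 kb without histone genes held no summit either.

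**Figure D3:**
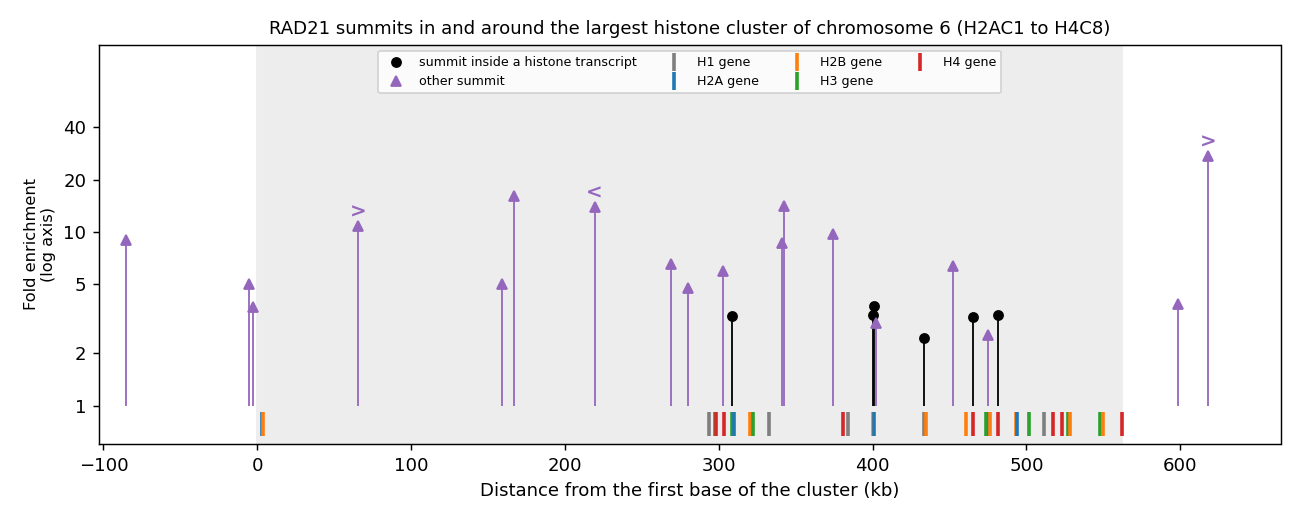
Summits of the largest histone cluster and 100 kb on each side, by distance from its first base (kb) and fold enrichment (log axis). Circles are summits inside histone transcripts, triangles other summits, arrowheads give the strand of a CTCF core motif, ticks at the bottom are histone genes by class and the shaded area is the cluster. The circles stay at or below 3.75, the high triangles stand away from the ticks, and the genes at the right end have no summit above them.

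The second cluster of chromosome 6, chr6:27125897-27147562 from H2BC11 to H2AC12, held 5 genes and 1 summit (46.2 per Mb, with 10 and 26 per Mb in the flanks). It was the motif-bearing peak described above for H2BC11. That peak stood near the outer edge of the cluster, and all 5 canonical transcripts, of H2BC11, H2AC11, H4C9, H2BC12 and H2AC12, lay in the 30.9 kb between it and the next summit. The third cluster, chr6:27807479-27893891 from H2BC13 to H2BC17, held 16 genes, of which 9 had a summit within 5 kb. Its 5 summits (57.9 per Mb, with 24 and 18 per Mb in the flanks) all lay inside histone transcripts, those of H2AC13, H4C11, H2BC15, H3C12 and H2AC17. Their fold enrichment was 2.03 to 3.07, none had a q-value of at most 1e-05, and at 2 of them the summit 100-mer was not unique. Between H2BC15 and H3C12, 51.9 kb with the genes H2AC16, H1-5, H3C11 and H4C13 held no summit.

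The large cluster of chromosome 1, chr1:149782689-149887965 from H2BC18 to H2AC21, had the most summits for its length. It held 11 genes, all with a summit within 5 kb, and 11 summits in 105 kb, or 104 per Mb, against 22 and 26 per Mb in the flanks. Only 3 of the 11 summits had a 100-mer that is unique in the assembly, and counted alone these gave 28.5 per Mb. By unique summits the clusters of chromosome 6 had 33.8, 46.2 and 34.7 per Mb, in order of position, and the small cluster of chromosome 1 had 35.3. These densities divide by the whole length, including repeated sequence, where no unique summit can stand. The second cluster of chromosome 6 and the small cluster hold 1 summit each, and the flanks were not recounted. The 5 values are therefore not ranked. Of the 11, 7 lay inside histone transcripts, those of H3C13, H4C14, H3C14, H2AC19, H3C15, H2BC21 and H2AC21, with fold enrichments of 2.72 to 4.19, and 4 had a q-value of at most 1e-05. The small cluster, chr1:228434777-228463104, consists of H2AC25 and H2BC26. Its only summit was that in H2AC25. This gave 35.3 per Mb, which was below the 56 and 70 per Mb in its flanks.

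**Figure D4:**
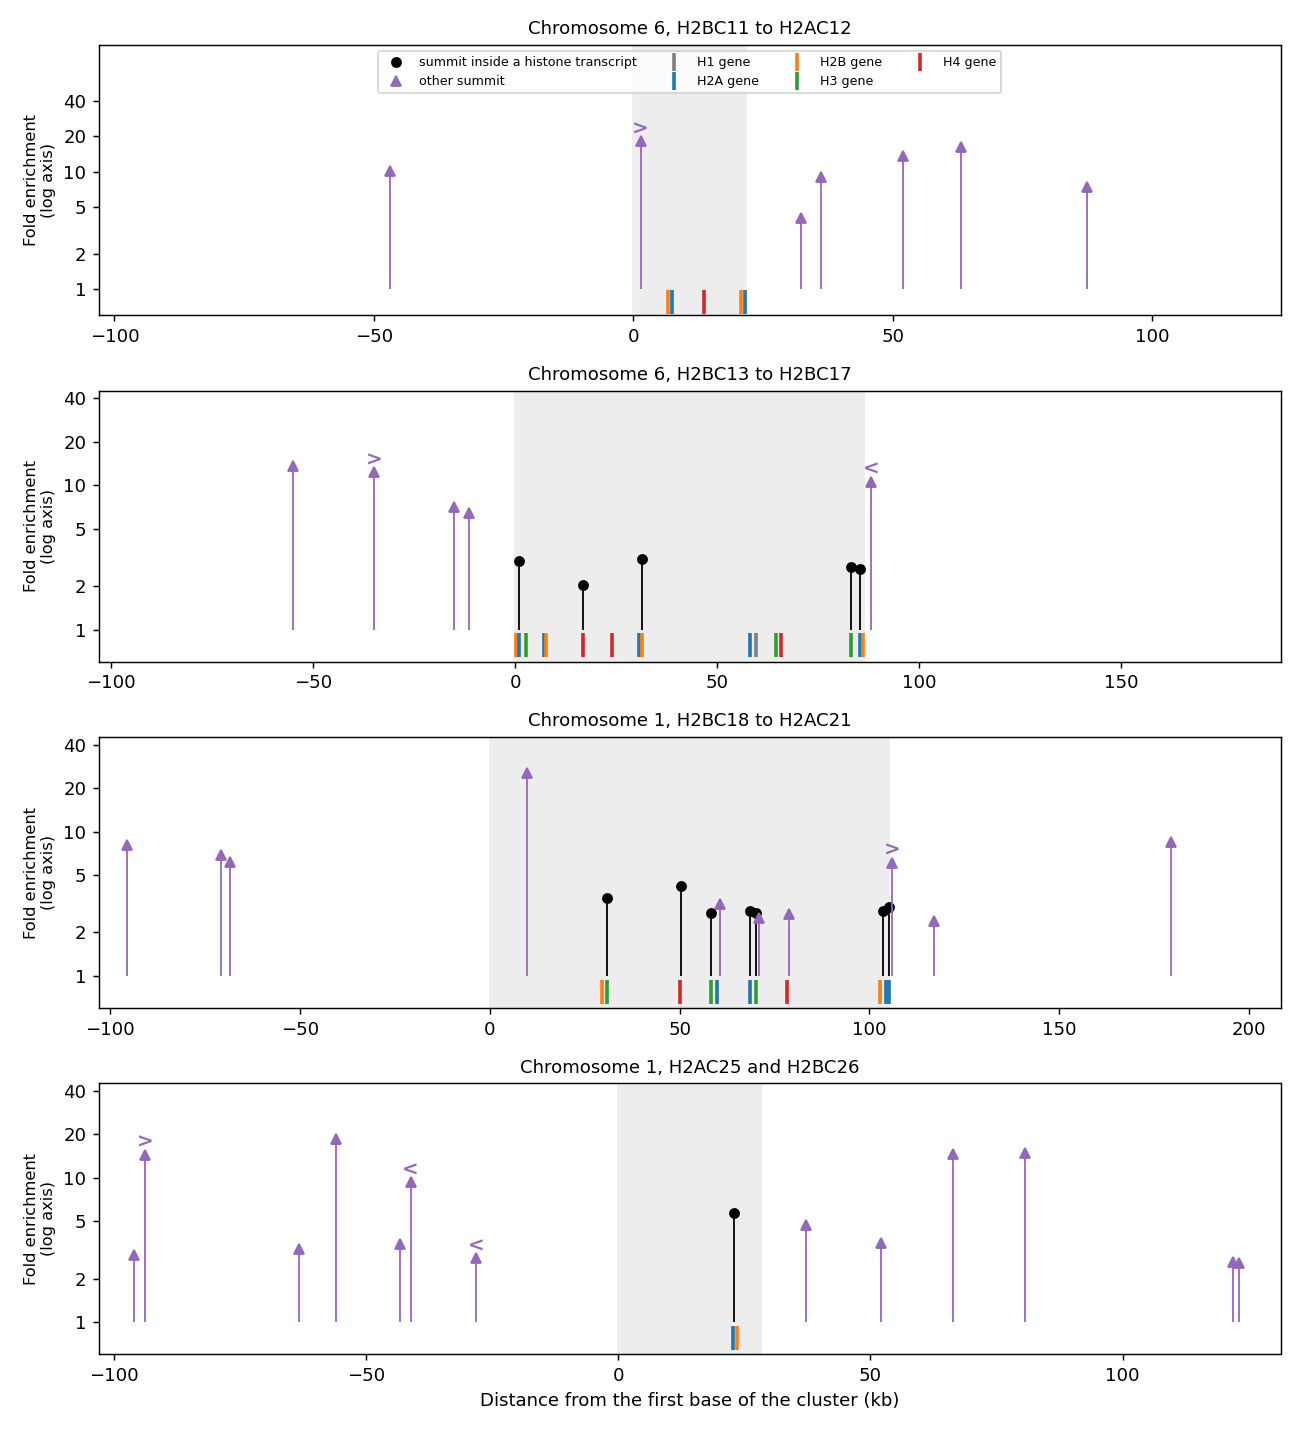
Summits in the other 4 histone clusters and 100 kb on each side, drawn as for the largest cluster with fold enrichment on a log axis. In the cluster from H2BC13 to H2BC17 the circles lie at 2.03 to 3.07, with the nearest high triangles on both sides carrying motifs that point towards the cluster. In the cluster from H2BC18 to H2AC21 the highest triangle, at 25.5, stands at the left, and the single summit of the H2BC11 cluster stands at its left edge.

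The borders of the clusters were described by the nearest summit outside each cluster with a fold enrichment of at least 10. At the H2BC13 to H2BC17 cluster these stood 34844 bp before the first gene (chr6:27772415-27772964, 116 fragments, fold enrichment 12.3) and 1766 bp past the last (the peak at H2BC17, 10.5). Both held the CTCF core motif, on the plus strand before the cluster and on the minus strand past it, so that the letters faced each other across the 16 genes. Neither met the stricter consensus, and the site past the cluster is that with the YY1 letters. At the end of the largest cluster, past H4C8, the border was the peak at chr6:26341535-26342171, 56168 bp away, with 260 fragments over 8.52 and a fold enrichment of 27.4. It held the motif on the plus strand, pointing away from the cluster. These motifs are shown as above.
Before H2BC13, chr6:27772599-27772650, plus strand: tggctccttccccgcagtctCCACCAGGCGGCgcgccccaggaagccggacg
Past H4C8, chr6:26341777-26341828, plus strand: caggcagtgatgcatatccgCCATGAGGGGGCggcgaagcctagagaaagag
Before H2AC1, the border of the largest cluster was 233148 bp away, with a fold enrichment of 14.1 and no motif, although a summit of 3.71 stood 2800 bp from H2AC1. The H2BC11 to H2AC12 cluster had borders at 46862 bp (10.0) and 30327 bp (13.5), neither with the motif. The large cluster of chromosome 1 had borders at 653447 bp (13.4) and 162823 bp (14.3) without the motif, although the nearest summit past H2AC21 was the motif-bearing peak at 623 bp with a fold enrichment of 6.04. The small cluster had borders at 55930 bp (18.7) and 38030 bp (14.6), also without the motif. In all, 3 of the 10 borders held the core motif, which is near its share of 32.5% among all 15463 peaks with a fold of 10 or more, and facing motifs were found at 1 of the 5 clusters. With the stricter consensus 0 of the 10 borders matched, the facing pair included, against 22.4% of the peaks with such a fold. The distances depend strongly on the fold chosen. They also depend on the cluster limits, which were the annotated gene extents. The peak at H2BC18 (25.5) and the motif-bearing peak at H2BC11 (18.3) counted as inside only through extended annotation. They stood 19.3 and 5.05 kb outside the canonical histone transcripts. With canonical limits they would be the left borders of their clusters.

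Genes of histone transcription and histone mRNA processing were examined for comparison. Of 20 genes, 14 had a summit in the gene or within 5 kb (75.3% of all protein-coding genes). A summit within 1 kb of the start of the gene extent was found at 8. The share of 34.1% of all protein-coding genes was measured from canonical starts, so it is not a like measure for this count. The highest was at LSM11, a component of the U7 particle that cuts histone mRNAs, with 271 fragments (fold enrichment 37.3) at −51 bp from the start. It was followed by ERI1, an exonuclease that trims the histone mRNA end (13.5, 27097 bp downstream of the start), and SYMPK, the scaffold of the cleavage complex (12.9, at −1085 bp). NPAT, the coactivator of the histone locus body, had a fold enrichment of 8.60 at −409 bp, with the core motif. CASP8AP2, HINFP, LSM10, CSTF2, CSTF2T and CCNE1 had no summit. Of 12 genes for replication-independent histones, which lie outside these clusters, all 12 had a summit, beside 75.3% of all protein-coding genes. Within 1 kb of the start of the gene extent, 6 had a summit, and here too the 34.1% at canonical starts is not a like measure. The highest were at H2AZ2, an H2A.Z gene (22.9, 249 bp downstream of the start), MACROH2A1 (8.83) and MACROH2A2 (8.69). At the latter pair the summits lay past the gene ends, 66539 and 63554 bp downstream of the starts.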

How the data were processed

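RAD21 ChIP-Seq peaks of untreated wild-type HCT116 cells were analysed (1 library of 4). By the study's methods and the submitters' processing notes, the authors used Trimmomatic 0.39 for trimming, Bowtie2 2.5.3 for alignment of read pairs to the GRCh38 set without alternate sequences, Picard for duplicate removal and MACS2 2.2.9.1 for peak calling against Input at a q-value of 0.05. Which Input served the wild-type library is not given in the sources used here. The deposited list gives per peak a score (not used), the fold enrichment (a ratio) at the summit, and the −log10 of the p-value and of the q-value. Replicates were not pooled, and read totals are not in the list.

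Fragment numbers and backgrounds were recovered from the deposited fold and p-value, with a tolerance of 0.05 for whole numbers. The inversion was checked by recomputing fold and p-value from recovered numbers of this list and recovering them again. That check cannot show that the numbers equal those used by MACS2. The motif search was checked on random sequences with planted motifs. Summits were compared with GENCODE version 44, using gene extents for the 5 kb rule and Ensembl canonical transcripts for starts, transcripts and coding exons. The starts of divergent pairs, and those of the 1 kb counts in the comparison lists, were the starts of gene extents. Exact copies of 100-mers were counted in the assembly on both strands. Promoter sequences came from RefSeq (GRCh38.p14). Clusters joined genes up to 500 kb apart. Named were the genes of the 10 highest peaks, the pairs with a peak, the highest peak of each cluster, the border peaks and the 3 highest of each comparison list. NPAT and the genes with a summit inside the transcript, with their codons, GC content and sequences, and the stretches without summits were chosen after their values were seen, as was AAGATGGC. The members and lists were chosen with earlier results of these data known. The list of replication-independent histone genes had a further entry, H4-16, that had no match by name. Alternatives with canonical extents and unique summits, and those for coding sequence, were added after seeing the data. With 1 library there were no tests between groups. Computations ran in Python 3.11.15 with pandas 2.3.3, pysam 0.24.0, numpy 2.4.6, numba 0.67.0, scipy 1.17.1 and matplotlib 3.10.9.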

Additional observations from a re-analysis of the deposited data

How the results depend on the processing

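The share of histone genes with a summit (55.9%) became 70.6% within 10 kb, 35.3% at a q-value of at most 1e-05 and 41.2% with unique summits. The same settings gave 81.7, 68.5 and 73.7% of all protein-coding genes and 37.7, 18.9 and 20% of those of at most 1 kb. It stayed inside its interval, between 47.1 and 55.9%, under the other 6 alternatives. Measured from gene starts, where gene length matters less, it was 52.9% against 48.4% of all protein-coding genes. At a q-value of at most 1e-05, starts within 1 kb fell to 17.6%, shared promoters to 15.4% and density to 27.4 summits per Mb, and the median fold enrichment was 4.19. Counted strictly between the starts, 0% of shared promoters had a summit. With the strict consensus, 0% of peaks held the motif.

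Border distances moved most. At a fold of at least 5 they were 68525 and 623 bp for the large cluster of chromosome 1, 41182 bp before the small cluster, 85322 bp before H2AC1, 14508 bp past H2AC12 and 11453 bp before H2BC13. At a fold of at least 20 they were 1253885 and 281186 bp, 435227 and 272263 bp, 444361 bp before H2AC1, 784091 and 2590694 bp for the H2BC11 cluster, and 1465673 and 1844365 bp for the H2BC13 cluster. With the core motif required they were 477677 and 623 bp, 28245 and 795136 bp, 166776 bp before H2AC1, and 529937 and 625073 bp for the H2BC11 cluster. The border past H4C8 was the same in all 3. The facing motifs around the H2BC13 cluster were the borders at a fold of 10 and with the motif required, but not at 5 or 20.

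No paired analysis was possible because there was only 1 library per group. With 20 to 63 fragments, the order of peaks inside histone transcripts is not resolved, and signal below the threshold of the list is not seen here.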
